A study of Mus musculus with 36 samples.

Results

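The 9 genes described here encode proteins that move water and salt into and out of saliva: Aqp5, Slc12a2, Ano1, Cftr, Scnn1a, Scnn1b, Scnn1g, Atp1b1 and Fxyd2. They were chosen by name for their roles, and all 9 were found among the 29219 genes with at least 1 UMI (unique molecular identifier, 1 per captured transcript) in mouse submandibular glands. RNA of single cells was measured by Drop-seq in 26 glands of mice on a C57BL/6 background. Of these, 12 were control glands (6 at P40 and 6 at P90, postnatal days) and 14 were double-mutant, tumor-bearing glands (7 at P40 and 7 at P90), with females and males in every group. The labels call 11 of the control glands wildtype and 1 control. By the study's methods, controls were bred from K14-Cre, which is driven by a keratin promoter of basal epithelial cells, and a Cre-inducible R26 EYFP reporter, and the labels do not say which of these each control mouse carried. Double-mutant mice were bred with the same Cre and reporter and carried a gain-of-function allele of β-catenin and loss-of-function alleles of Bmpr1a, all floxed and thus changed where Cre acts. Bulk mRNA-seq covered 2 female glands, a control at P70 and a double mutant at P100.

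Salivary fluid is made in steps by different cells. Acinar cells take up chloride across their basolateral side through the Na-K-2Cl cotransporter NKCC1 (Slc12a2) and release it into the lumen through the calcium-activated chloride channel TMEM16A (Ano1). Sodium follows between the cells, and water follows through aquaporin 5 (Aqp5). Ducts then recover salt through the epithelial sodium channel ENaC, whose α, β and γ subunits are Scnn1a, Scnn1b and Scnn1g, together with the cAMP-gated chloride and bicarbonate channel CFTR (Cftr). The sodium pump drives both steps, with Atp1b1 as a β subunit and Fxyd2 as a regulatory γ subunit.

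After cells with fewer than 100 genes or with 15% or more mitochondrial UMIs were left out, 23346 cells remained, 606 to 1209 per gland, with 650301 to 6994504 UMIs per gland. Double-mutant glands at P90 were the shallowest, with a median of 878740 UMIs against 4338300 in control glands at P40. The Xist and Y-linked UMIs of 2 double-mutant libraries (P40 replicate 1 and P90 replicate 5) went against their sex labels, and another (P90 replicate 4) had a high share of ribosomal UMIs, so results were also computed without them. Cells were clustered with the 9 genes and the other transport genes held out, so that the levels of the 9 genes by class were not used to form the classes. Of 29 clusters, 23 matched a list of cell type markers and were named after it, and 6 stayed unnamed and are called by their leading gene. The naming checked the tissue as well: acinar, ductal, luminal, basal and myoepithelial cells of the salivary gland were found by their own markers in control and double-mutant glands.

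In control glands the 3 secretory genes had most of their UMIs in acinar-like cells. These cells held 71.6% of Aqp5, 66.8% of Ano1 and 60% of Slc12a2 UMIs. The channels of salt uptake lay elsewhere. Acinar-like cells held 4.55% to 8.11% of the UMIs of Cftr and the 3 ENaC subunits, and the Klk1+, Egf+ and progenitor-like duct classes together held most of them. Fxyd2 resembled these duct genes, with 54.3% of its UMIs in ductal Klk1+-like cells and 5.59% in acinar-like cells. Atp1b1 was divided, with 31.6% in acinar-like and 28.6% in ductal Klk1+-like cells.

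**Figure D1:**
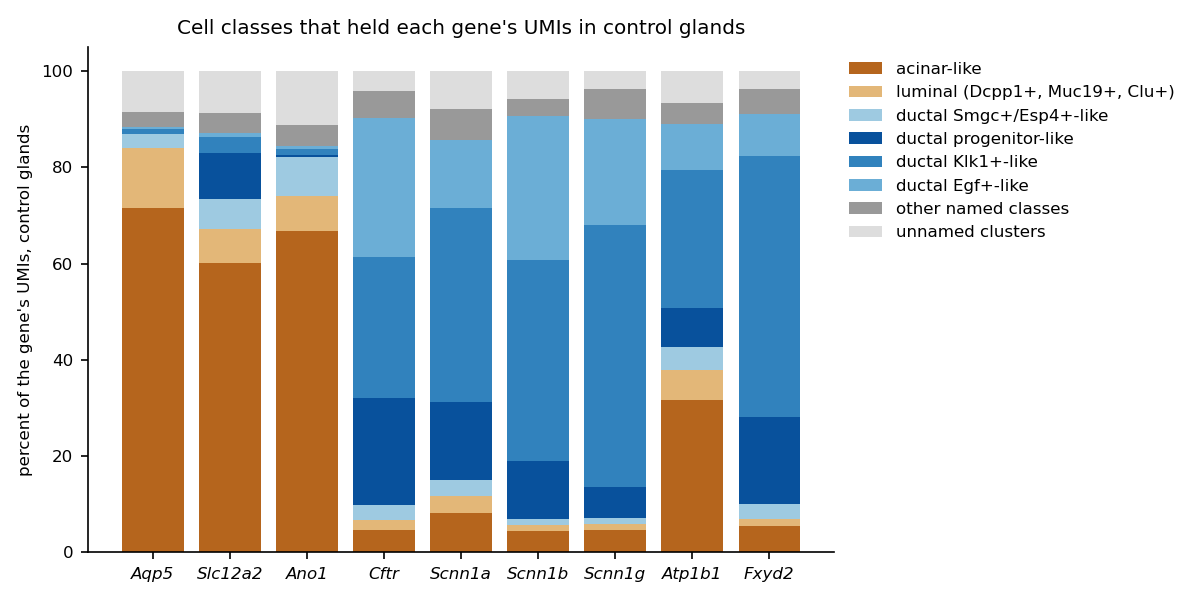
Percent of each gene's UMIs in control glands (y axis) held by each cell class, as stacked bars for the 9 genes (x axis). Acinar-like cells held the largest share of Aqp5 (71.6%), Ano1 (66.8%) and Slc12a2 (60%), and ductal Klk1+-like cells held the largest share of Fxyd2 (54.3%) and Scnn1g (54.4%).

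Shares of UMIs follow the number and size of the cells, so levels were also computed as CPM (UMIs scaled to the same total in each class of each gland), for glands with at least 10 cells of the class. Aqp5 (mm10, chr15:99590849-99594829, plus strand), the apical water channel, was highest in luminal Muc19+-like cells, the class marked by the mucin Muc19. The 5 control glands with enough of these cells ranged from 946 to 1236 CPM with a median of 1111. The 12 control glands ranged from 129.6 to 457 CPM in acinar-like cells, with a median of 273. The lowest Muc19+ value was thus above the highest acinar value, and the CPM ranges did not overlap. The Muc19+ class, with 121 cells, held 2.44% of Aqp5 UMIs. CPM is a share of all UMIs of a class, and these 2 classes were not compared on a scale set by the median gene. The share of all genes without overlap between them was not computed. Muc19 is a mucin of the sublingual gland, which lies against the submandibular gland, and no cell of the class was found in 10 of the 26 glands, while it reached 11.5% of the cells of another. Whether its cells came from sublingual tissue was not tested. In 9 double-mutant glands the Muc19+ class ranged from 563 to 1326 CPM (median 858), again above every acinar-like value of those glands (78.9 to 230.2 CPM).

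Low levels of Aqp5 were also found in cells that are not secretory. Ductal Klk1+-like cells had a median of 38.8 CPM (0 to 247), endothelial-like cells 87.7 CPM and immune-like cells 56.0 CPM. For each 1000 UMIs of the 8 acinar markers, Aqp5 had 2.33 UMIs in acinar-like cells, 2.66 in ductal Klk1+-like cells, 2.33 in endothelial-like cells and 2.14 in immune-like cells of control glands. The ratio was 1.43 in progenitor-like and 7.12 in Smgc+/Esp4+-like cells of control glands. In double-mutant glands it was 1.55 in acinar-like, 2.10 in Klk1+-like, 1.29 in endothelial-like and 2.93 in immune-like cells. Myoepithelial-like cells of control glands had a median of 190 CPM of Aqp5, and their ratio was not computed. Whether the Aqp5 of such classes was background RNA of acinar cells in the droplets was not tested. In luminal Muc19+-like cells of control glands the ratio was 174.

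Slc12a2 (chromosome 18, plus strand), the cotransporter that loads chloride, had its highest CPM in duct cells. Ductal progenitor-like cells, the class marked by Ascl3, Foxi1 and subunits of the vacuolar proton pump, ranged from 1062 to 3403 CPM over 11 control glands (median 1949). Ductal Smgc+/Esp4+-like cells followed with 345 to 1757 CPM (median 754), and luminal Muc19+-like cells with 418 to 609.7 CPM (median 524). Acinar-like cells ranged from 302 to 495 CPM (median 363), below every progenitor-like value. The progenitor-like and Smgc+/Esp4+-like ranges overlapped, as did those of the next classes in the order. Ductal Egf+-like cells were lowest among the named classes, with a median of 73.1 CPM (7.04 to 302). In the progenitor-like class there were 149 Slc12a2 UMIs per 1000 acinar-marker UMIs, against 3.03 in acinar-like cells. The part of background acinar RNA in this level was not tested. CPM is a share of all UMIs of a class, and on a scale set by the median gene acinar-like and progenitor-like cells were not called different for Slc12a2, as tested below.

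Ano1 (chr7:144588549-144751974, minus strand), the apical chloride channel, was also found in contractile cells. Among named classes, myoepithelial-like cells, the contractile cells around acini, had the highest median, 176 CPM (35.4 to 317, 7 glands). Ductal Smgc+/Esp4+-like cells came next with a median of 142 CPM (37.2 to 399.7, 12 glands). Acinar-like cells ranged from 20.2 to 71.8 CPM (median 41.2) and ductal Klk1+-like cells from 0 to 25.8 CPM (median 8.65). The ranges of the first 2 classes overlapped each other and that of acinar-like cells. This order is by CPM, a share of all UMIs of a class. Neither myoepithelial-like nor Smgc+/Esp4+-like cells were compared with acinar-like cells on a scale set by the median gene. The unnamed Rgs5 cluster, led by genes of pericytes and vascular smooth muscle, had 102 and 251 CPM in the 2 control glands with enough cells.

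Cftr (chr6:18170687-18322768, plus strand) had its highest level in ductal progenitor-like cells, with 94.8 to 348 CPM over 11 control glands (median 224). Egf+-like and Klk1+-like duct cells had medians of 75.3 CPM (37.8 to 152) and 72.3 CPM (21.5 to 138). These ranges overlapped. Acinar-like cells did not reach any of them, with 0 to 6.0 CPM (median 1.30). Cftr was at 0 in all 5 control glands of the Muc19+ class, where 3 UMIs would have been 14.8 CPM.

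The 3 ENaC subunits shared a duct pattern. Scnn1a (chr6:125320659-125344943, plus strand), the α subunit, had a median of 127 CPM in progenitor-like cells (52.2 to 216), 77.2 CPM in Klk1+-like cells (10.7 to 155) and 46.4 CPM in basal-like cells (24.9 to 99.5), and these ranges overlapped. Scnn1b (chr7:121865111-121918515, plus strand), the β subunit, had medians of 161 CPM in Klk1+-like cells (36.4 to 249), 152 CPM in Egf+-like cells (71.7 to 302) and 131 CPM in progenitor-like cells (40.7 to 235). In basal-like cells Scnn1b did not exceed 40.9 CPM, below every Egf+-like value. Scnn1g (chr7:121734479-121768475, plus strand), the γ subunit, was the sparsest of the 9 genes, with 241 UMIs in control cells, and its median was 51.7 CPM in Klk1+-like cells (0 to 125). In acinar-like cells the highest values in any control gland were 7.20 CPM for Scnn1a, 4.05 CPM for Scnn1b and 2.41 CPM for Scnn1g.

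**Figure D2:**
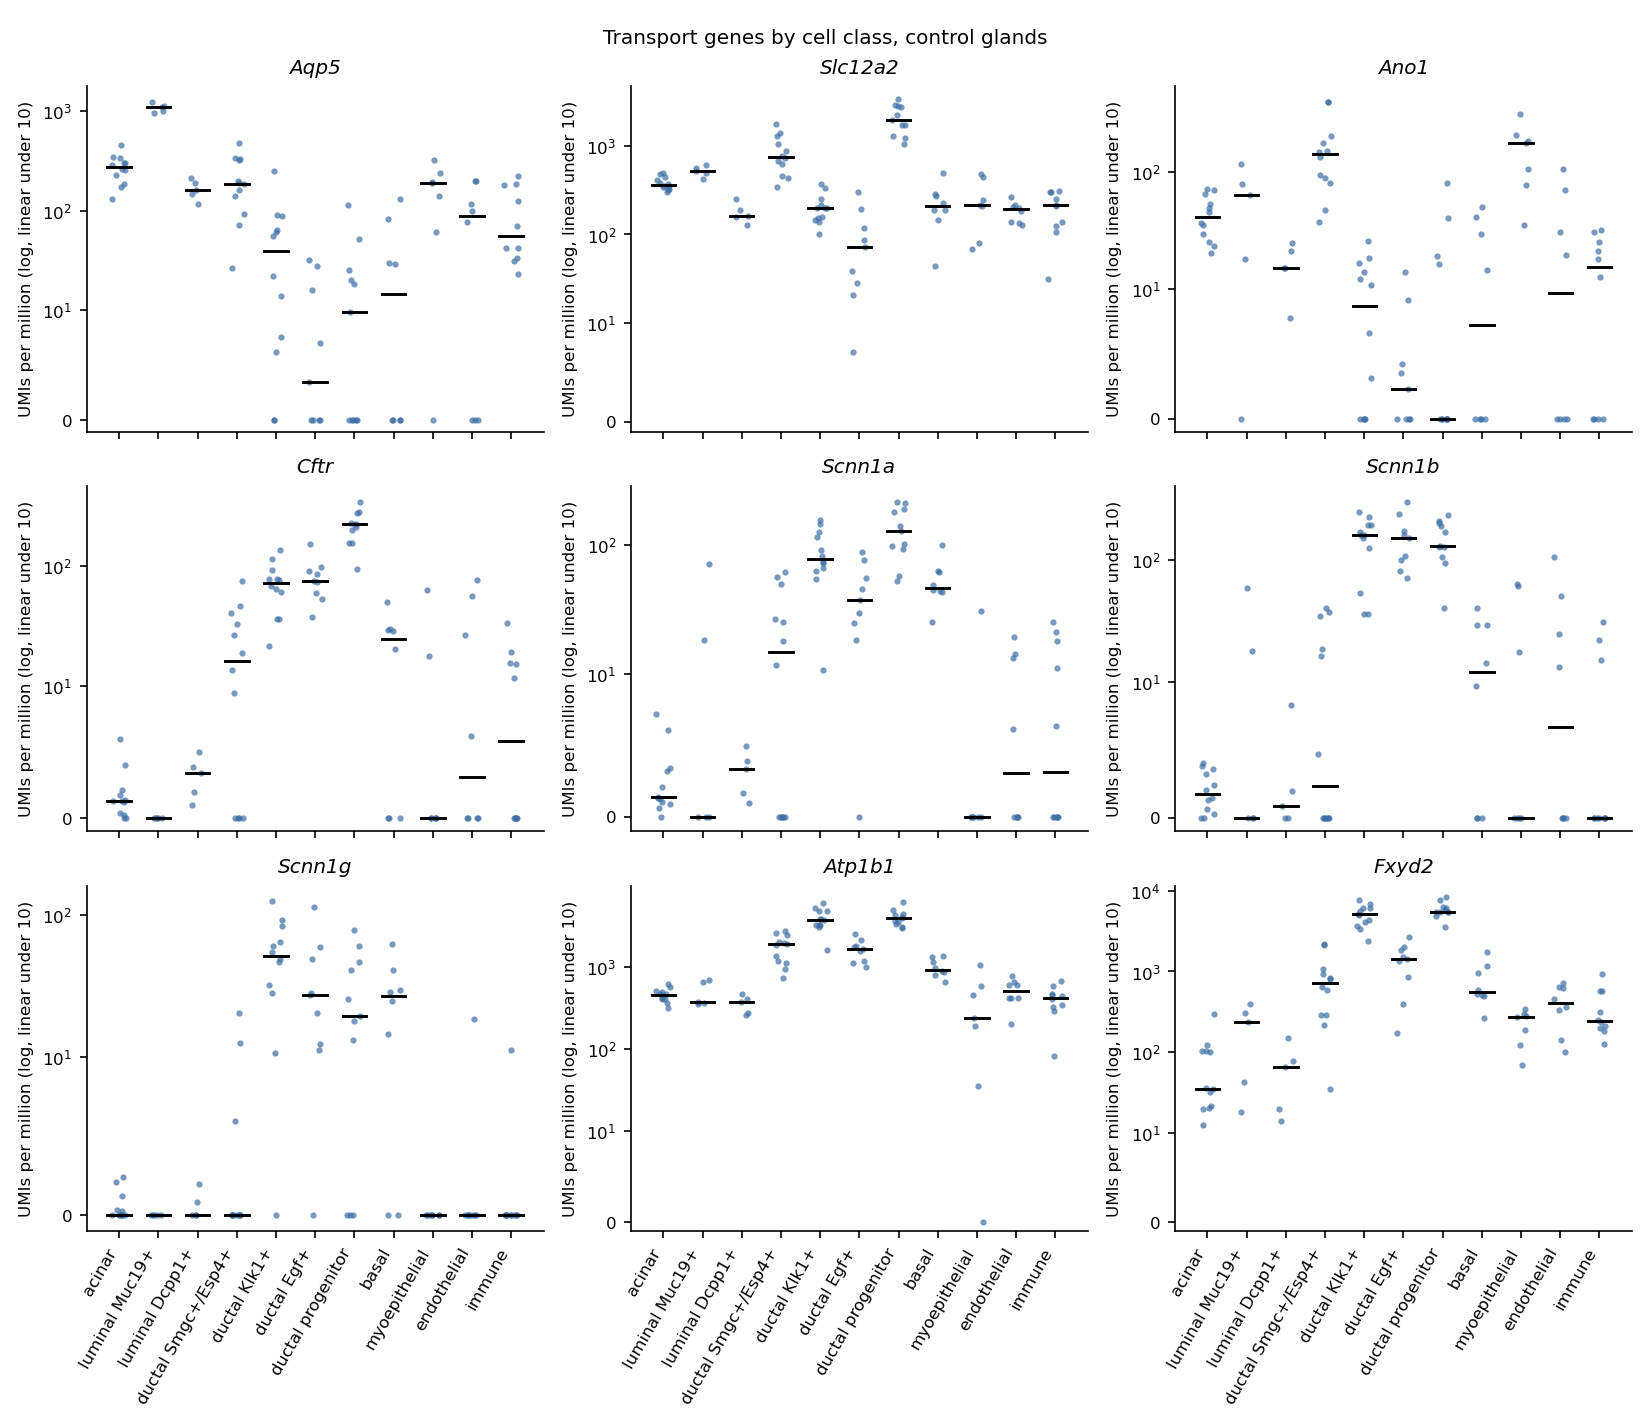
Level of each gene in CPM (y axis, log scale, linear under 10) by cell class (x axis) in control glands, with 1 point per gland with at least 10 cells of the class and a bar at the median. By CPM Aqp5 stood highest in luminal Muc19+-like cells (median 1111), an order not tested on another scale. Slc12a2 stood highest by CPM in ductal progenitor-like cells (median 1949), an order that depends on the scaling. Cftr, Scnn1a and Scnn1b stood highest in duct classes.

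Among named classes, both sodium pump genes were highest in the same 2 duct classes. Atp1b1 (chr1:164437109-164458355, minus strand) ranged from 2939 to 6171 CPM in progenitor-like cells (median 3869.8) and from 1569 to 5963 CPM in Klk1+-like cells (median 3734). Acinar-like cells ranged from 316 to 609.9 CPM (median 445), below every gland of both duct classes. Fxyd2 (chr9:45403138-45410278, plus strand) ranged from 3527 to 8400 CPM in progenitor-like cells (median 5506) and from 2407 to 7795 CPM in Klk1+-like cells (median 5101). Acinar-like cells ranged from 12.5 to 295 CPM for Fxyd2 (median 34.9). For each 1000 Klk1 UMIs, Fxyd2 had 44.8 UMIs in acinar-like, 35.7 in endothelial-like, 57.0 in immune-like, 29.4 in Klk1+-like and 99.98 in progenitor-like cells. The ratio of acinar-like cells lay between those of endothelial and immune cells, and background RNA and low expression of Fxyd2 there were not told apart.

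A small duct cluster led by Duoxa2, a maturation factor of the dual oxidase that makes hydrogen peroxide, held high levels of several of these genes. It stayed unnamed because its leading genes held no marker of the ductal Klk1+ list, for which it scored highest, and it had 72 cells in control glands, 10 or more of them in only 1 gland. Pooled over control glands, its levels were 9545 CPM for Atp1b1, 6151 CPM for Fxyd2, 369 CPM for Scnn1b, 318 CPM for Scnn1a and 103 CPM for Cftr. With 1 gland these are values without a replicate check.

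Acinar-like cells were next tested against ductal Klk1+-like and ductal progenitor-like cells, which had at least 10 cells in 12 and 11 control glands (Egf+-like cells in 9), with the 2 sums of a gland as a pair, by the quasi-likelihood test of edgeR, with p-values adjusted over all genes tested by Benjamini-Hochberg. In control glands all 9 genes differed between acinar-like and ductal Klk1+-like cells. Aqp5 was higher in acinar-like cells by 4.42 ± 0.26 (SE) on the log2 scale, Ano1 by 3.98 ± 0.26 and Slc12a2 by 2.81 ± 0.16 (n = 12 glands, highest adjusted p over the 3 genes 4.65e-18, edgeR). The other 6 genes were lower in acinar-like cells. The log2 fold changes were -4.76 ± 0.25 for Fxyd2, -4.67 ± 0.38 for Scnn1g, -4.56 ± 0.23 for Scnn1b, -3.73 ± 0.30 for Cftr and -3.51 ± 0.26 for Scnn1a. That of Atp1b1 was -1.21 ± 0.15 (adjusted p = 1.89e-09, edgeR). Of all 6185 genes tested, 25.4% were called higher in acinar-like cells and 24.8% higher in the duct class, a background set in part by the genes that formed the clusters.

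These fold changes are relative to the median gene. With library size alone the median of all genes moved by -1.89 on the log2 scale, and 2.6% in place of 50.6% of the calls were then higher in acinar-like cells. The 9 directions did not change under that scaling. Slc12a2 was then higher by 0.93 and Aqp5 by 2.59, while Atp1b1 was lower by 3.09.

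Against ductal progenitor-like cells, 8 of the 9 genes differed in the 11 control glands with both classes. Aqp5 was higher in acinar-like cells by 6.09 ± 0.28 and Ano1 by 4.10 ± 0.35 on the log2 scale. Fxyd2, Cftr, Scnn1b, Scnn1a, Scnn1g and Atp1b1 were lower, with log2 fold changes from -4.56 ± 0.32 (Cftr) to -0.63 ± 0.17 (Atp1b1, adjusted p = 0.000743, edgeR). Slc12a2 was not called, at 0.12 ± 0.16 (adjusted p = 0.609, edgeR), but with library size alone it was lower in acinar-like cells by 2.44, as its CPM levels show. The median of all genes moved by -2.50 under that scaling, and the share of calls that were higher in acinar-like cells from 60.8% to 1.82%. Of all 6628 genes, 22.7% were called higher in acinar-like cells and 14.6% higher in the duct class.

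In the 14 double-mutant glands the same 9 genes differed between acinar-like and Klk1+-like cells, in the same directions. Aqp5 was higher in acinar-like cells by 5.65 ± 0.26, Ano1 by 3.66 ± 0.29 and Slc12a2 by 2.49 ± 0.21 on the log2 scale. Scnn1b was lower by the most, at -5.37 ± 0.30, and Atp1b1 by the least, at -1.55 ± 0.17 (adjusted p = 1.05e-15, edgeR). Of all 4690 genes tested there, 17.7% were called higher in acinar-like cells and 30.4% higher in the duct class. With library size alone 2.14% in place of 36.9% of those calls were higher in acinar-like cells, and none of the 9 genes changed direction.

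**Figure D3:**
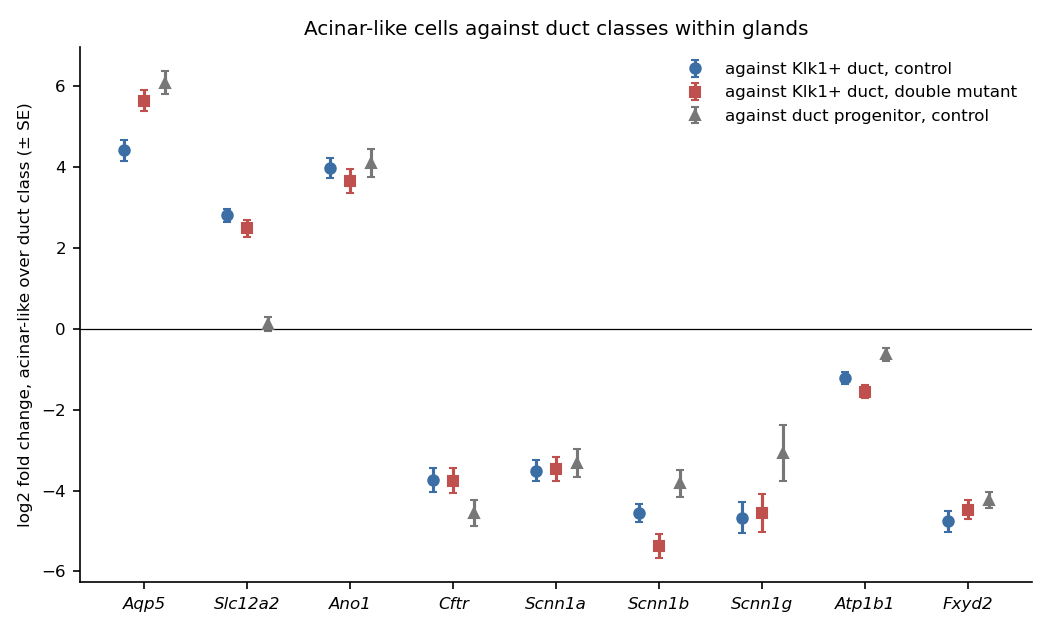
Log2 fold change (y axis, ± SE) of acinar-like cells over a duct class for each of the 9 genes (x axis), for ductal Klk1+-like cells in control glands, ductal progenitor-like cells in control glands and ductal Klk1+-like cells in double-mutant glands. Aqp5 and Ano1 were above 0 in all 3 comparisons, Slc12a2 was near 0 (0.12) against progenitor-like cells, and the other 6 genes were below 0.

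Whether the acinar to duct difference itself changed with genotype was tested as an interaction over the 26 glands. None of the 9 genes was called by edgeR or by DESeq2, and 1 passed an unadjusted p of 0.05. That gene was Aqp5, whose difference was larger in double-mutant glands by 1.41 ± 0.48 on the log2 scale (adjusted p = 0.468, edgeR). It was called when cells were clustered more coarsely (2.06 ± 0.50, adjusted p = 0.0242, edgeR), beside 43 of all 7486 genes. The acinar markers in Klk1+-like cells moved with genotype too, with medians of 16569 CPM (summed over the 8 markers) in control and 3952 CPM in double-mutant glands. Their part in this difference was not tested. Of all 7030 genes, 0.284% were called, of which 95% were higher in the double mutant (70% with library size alone).

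The question of how the transport genes compare between control and tumor-bearing glands was addressed first in whole glands, from the summed UMIs of all kept cells. Values of whole glands below are CPM scaled by TMM factors, which set the median gene at the same level in all glands. In such sums fewer cells of a type and less RNA per cell cannot be told apart. Aqp5, Slc12a2 and Atp1b1 were lower in double-mutant glands, and the other 6 genes were not called.

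At P40 the Aqp5 level of control glands lay between 131.7 and 531 scaled CPM (median 385), and at P90 between 108 and 326 (median 239). In double-mutant glands it ranged from 49.0 to 236 at P40 (median 108) and from 62.2 to 306 at P90 (median 106). The groups overlapped, with 8 of 14 double-mutant glands below the lowest control gland. Over both stages Aqp5 was lower by 2.23-fold in double-mutant glands, with a log2 fold change of -1.16 ± 0.29 (n = 12 and 14, adjusted p = 0.00747, edgeR).

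Control glands had 401 to 661 scaled CPM of Slc12a2 at P40 (median 528) and 361 to 506 at P90 (median 409.6). In double-mutant glands it ranged from 137 to 389.8 at P40 (median 300.2) and from 86.3 to 489.8 at P90 (median 203). Of 14 double-mutant glands, 11 were below the lowest control gland and none was above the highest. The log2 fold change was -0.84 ± 0.20 (adjusted p = 0.00563, edgeR).

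For Atp1b1, control glands held 835 to 1309 scaled CPM at P40 (median 1207) and 875 to 1449 at P90 (median 1034). In double-mutant glands it ranged from 253 to 949.8 at P40 (median 804) and from 217 to 995 at P90 (median 484). Again 11 of 14 double-mutant glands were below the lowest control gland, and all 14 were below the control median. The log2 fold change was -0.93 ± 0.23 (adjusted p = 0.00696, edgeR).

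These 3 calls stand beside 22% of all 10488 genes called for genotype. Whether these genes were called also depended on the scaling and on a batch term. With library size alone the median of all genes moved by 0.66 on the log2 scale and 99.1% in place of 65.6% of the calls were higher in double-mutant glands. Aqp5 then stayed lower (-0.62, adjusted p = 0.00729, edgeR), Slc12a2 (-0.27, adjusted p = 0.204, edgeR) and Atp1b1 (-0.45, adjusted p = 0.053, edgeR) were not called, and Ano1 was called higher (0.78, adjusted p = 0.00559, edgeR). With the batch of the titles as a term none of the 3 was called, beside 300 of all 15183 genes in that fit. The log2 fold changes were then -1.08 ± 0.36 for Aqp5 (adjusted p = 0.0977, edgeR), -0.92 ± 0.29 for Slc12a2 (adjusted p = 0.0869, edgeR) and -0.99 ± 0.39 for Atp1b1 (adjusted p = 0.151, edgeR). These were near those of the main fit, with larger errors. The same 3 genes were called without the 2 libraries against their sex labels, and also without that of high ribosomal share. With all 3 left out, 5 of 11 double-mutant glands were below the lowest control gland for Aqp5, 8 for Slc12a2 and 9 for Atp1b1.

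The makeup of the glands moved with genotype too. Acinar-like cells were 14.6% to 69.4% of the cells of control glands (median 35.0%) and 2.73% to 50.9% of those of double-mutant glands (median 14.8%). The 4 unnamed clusters that scored highest for acinar markers had medians of 5.82% and 11.8%, and immune, T/NK, Ig-producing, endothelial and fibroblast-like cells together 9.60% and 24.4%. The part of this makeup in the whole-gland differences was not tested.

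None of the salt-absorbing genes was called in the main fit, and the ends of their ranges in double-mutant glands lay in libraries in doubt for Scnn1b and Fxyd2. Scnn1b was called lower with glands thinned to the shallowest (-0.80, adjusted p = 0.0475, edgeR). With replicate number as a term, Scnn1b (-0.83, adjusted p = 0.0259, edgeR) and Cftr (-0.65, adjusted p = 0.0446, edgeR) were called lower. Scnn1b ranged from 19.0 to 41.7 scaled CPM in control glands and from 3.42 to 49.6 in double-mutant glands, with 8 below the lowest control gland and 1 above the highest (log2 fold change -0.59 ± 0.26, adjusted p = 0.0934, edgeR). Its lowest value was that of P90 replicate 4 and its highest that of P40 replicate 1, and the 11 glands without the 3 libraries in doubt ranged from 8.33 to 39.9, with 6 below the lowest control gland and none above the highest. Fxyd2 ranged from 295 to 1557 in control and from 44.5 to 1977 in double-mutant glands (-0.52 ± 0.40, adjusted p = 0.341, edgeR). Both ends of the latter lay in the same 2 libraries, and without the 3 in doubt Fxyd2 ranged from 166 to 1220 (3 glands below and none above the control range). Cftr, Scnn1a and Scnn1g had log2 fold changes of -0.43 ± 0.24, -0.16 ± 0.23 and -0.33 ± 0.24. Ano1 was nearly level, with medians of 45.8 in control and 52.4 in double-mutant glands (0.08 ± 0.22, adjusted p = 0.81, edgeR).

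**Figure D4:**
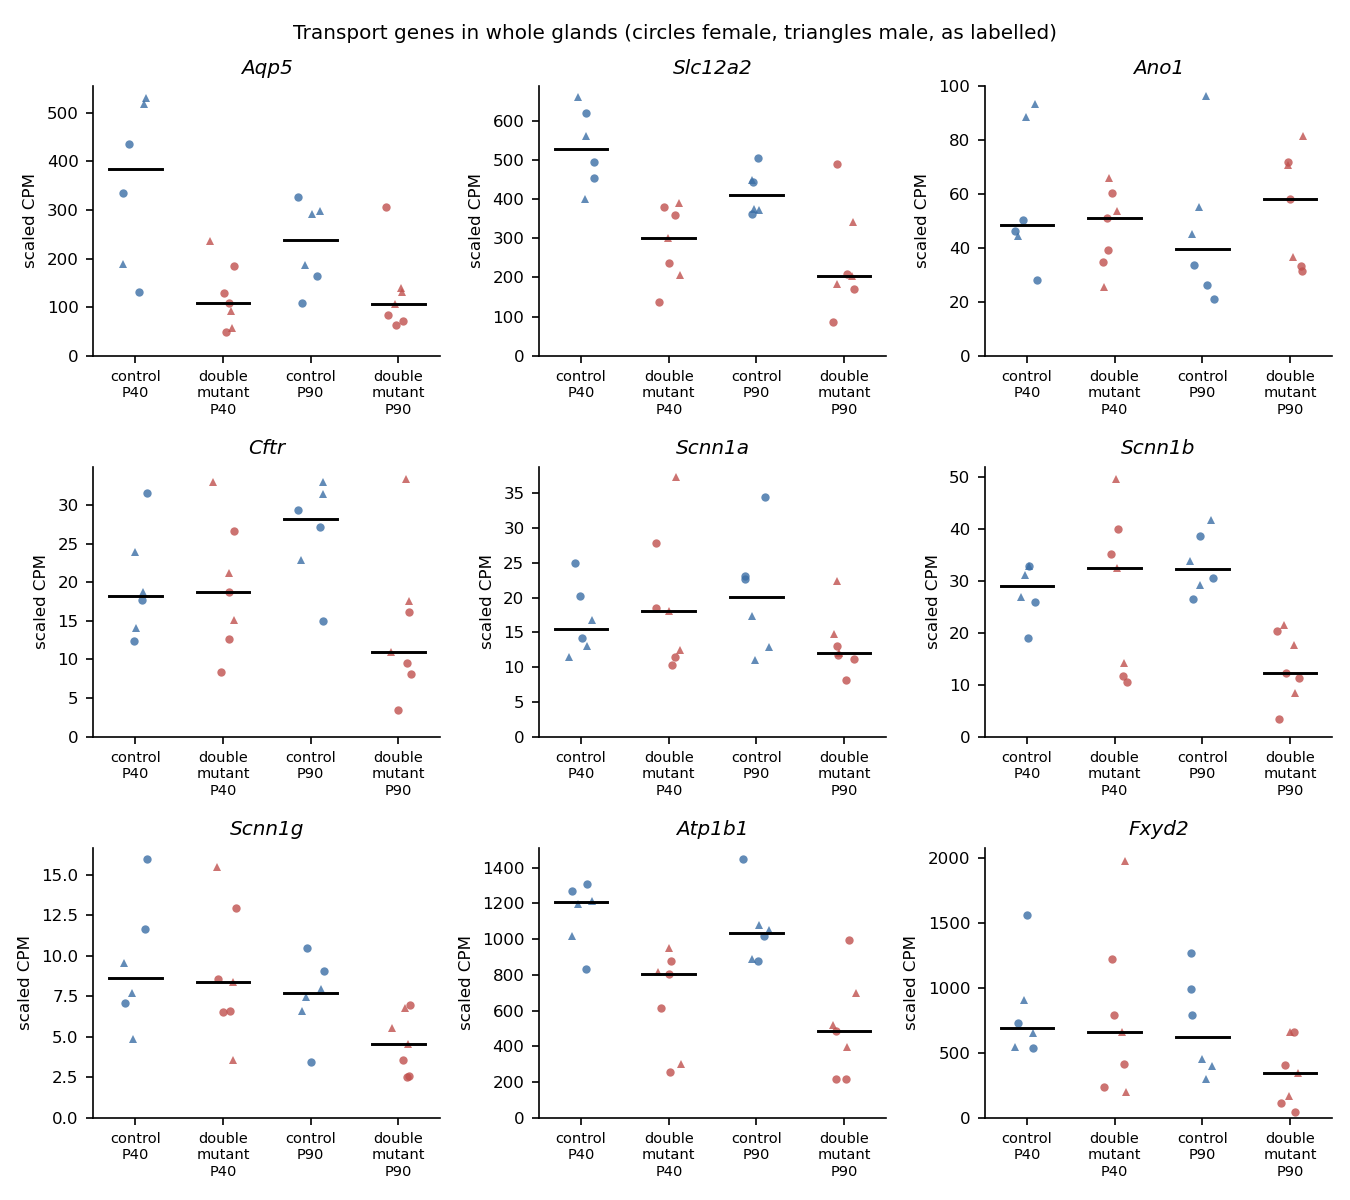
Scaled CPM of each gene (y axis, from 0) in every gland by group (x axis), with circles for females and triangles for males as labelled and a bar at the median of each group. On this scale most double-mutant glands lay below all control glands for Slc12a2 and Atp1b1 (11 of 14 each), while in CPM without the TMM factors the ranges overlapped more. Fxyd2 spread from 44.5 to 1977 in double-mutant glands (166 to 1220 without the 3 libraries in doubt).

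By stage, none of the 9 genes was called at P40 by edgeR, 3 passed an unadjusted p of 0.05 and DESeq2 called 2 (Aqp5 and Slc12a2). Over all genes at P40, edgeR called 0.255% of 10213 and DESeq2 called 681 of 10206. Aqp5 had a log2 fold change of -1.51 ± 0.41 there (adjusted p = 0.0883, edgeR). At P90 Scnn1b was called, with a log2 fold change of -1.24 ± 0.31 (adjusted p = 0.0346, edgeR), beside 4.9% of all 9094 genes. Scnn1b ranged from 26.6 to 41.7 scaled CPM in the 6 control glands and from 3.42 to 21.5 in the 7 double-mutant glands at P90, without overlap. In CPM without the TMM factors these ranges overlapped, at 23.1 to 43.5 in control and 4.99 to 26.45 in double-mutant glands. The share of all genes without overlap was not computed. At P40 the control range of Scnn1b (19.0 to 32.8) lay inside the double-mutant range (10.5 to 49.6).

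The Scnn1b call at P90 was lost without P90 replicate 5, 1 of the 2 libraries against their sex labels (-1.19, adjusted p = 0.0733, edgeR), and with library size alone (-0.78, adjusted p = 0.129, edgeR), where 95.2% in place of 72.6% of all calls were higher. With batch as a term 6 of the 9 genes were called at P90, beside 1232 of all 13433 genes in that fit. Only batches 8 and 9 held glands of both genotypes at P90, so its genotype term rested on them. Double-mutant P90 replicate 4, in doubt for its ribosomal share, was among those glands. Aqp5 (-1.18), Slc12a2 (-1.55), Cftr (-1.64), Scnn1b (-2.38) and Atp1b1 (-1.57) were then lower and Ano1 (0.95) higher in double-mutant glands. The difference in the genotype effect between stages was tested directly. It was called for none of the 9 genes by edgeR or DESeq2 (Scnn1b -1.24 ± 0.47, adjusted p = 0.767, edgeR), 1 passed an unadjusted p of 0.05, and 0.00876% of all 11420 genes were called.

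Stage was also compared within each genotype. In control glands none of the 9 genes was called by edgeR or DESeq2 and none passed an unadjusted p of 0.05, while 10.9% of all 9099 genes were called, 85.2% of them higher at P90 (98.6% with library size alone). Batch and stage cannot be told apart in control glands, whose P90 and P40 libraries came from different batches of the titles. In double-mutant glands none of the 9 genes and 0% of all 9857 genes were called by edgeR, DESeq2 called none of the 9, and 2 of the 9 passed an unadjusted p of 0.05 (Scnn1b and Scnn1g, lower at P90 by 0.98 and 0.97 on the log2 scale). That of Fxyd2 was -1.17 ± 0.61, and -0.56 without the 2 libraries against their sex labels.

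Between the sexes of control glands none of the 9 genes was called by edgeR, 3 passed an unadjusted p of 0.05 and DESeq2 called 1. That gene was Ano1, which ranged from 44.4 to 96.3 scaled CPM in 6 males (median 72.0) and from 21.1 to 50.3 in 6 females (median 30.8). Its log2 fold change of males over females was 1.05 ± 0.24 (adjusted p = 0.063 by edgeR and 0.00663 by DESeq2). Fxyd2 (-0.94 ± 0.30, adjusted p = 0.202, edgeR) and Scnn1a (-0.75 ± 0.21, adjusted p = 0.13, edgeR) had lower values in males. Of all 9099 genes 1% were called for sex by edgeR, of which 73.6% were higher in males (53.9% with library size alone). DESeq2 called 205 of 9086 genes.

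Within cell classes fewer of the 9 genes could be tested, since the filter on low counts left out those with few UMIs in a class. In acinar-like cells 5 were tested (Aqp5, Slc12a2, Ano1, Atp1b1 and Fxyd2) and Aqp5 was called. It ranged from 129.6 to 457 CPM in 12 control glands (median 273) and from 78.9 to 230.2 CPM in 14 double-mutant glands (median 169), with overlapping groups. Aqp5 was lower by 1.70-fold, with a log2 fold change of -0.77 ± 0.18 (adjusted p = 0.0201, edgeR), beside 0.95% of all 3789 genes called. For each 1000 acinar-marker UMIs, Aqp5 had 2.33 UMIs in control and 1.55 in double-mutant acinar-like cells.

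Slc12a2 (-0.55 ± 0.19, adjusted p = 0.223, edgeR) and Atp1b1 (-0.48 ± 0.17, adjusted p = 0.233, edgeR) had lower values in double-mutant acinar-like cells, but were not called. With the 4 unnamed acinar-scoring clusters added, Aqp5, Slc12a2 (-0.68, adjusted p = 0.0226, edgeR) and Atp1b1 (-0.59, adjusted p = 0.0083, edgeR) were called, beside 235 of all 5376 genes. The Aqp5 call was lost without the 3 libraries in doubt (-0.70, adjusted p = 0.0615, edgeR) and with batch as a term (-0.92, adjusted p = 0.408, edgeR). The acinar-like clusters were shared unevenly: 1 of the 6 held 12.4% of the control and 1.73% of the double-mutant acinar-like cells.

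In duct classes no change of the salt-absorbing genes with genotype was called. In ductal Klk1+-like cells 7 of the 9 genes were tested, 1 passed an unadjusted p of 0.05 (Cftr, 0.55 ± 0.27, adjusted p = 0.414, edgeR) and none was called by edgeR or DESeq2, beside 1.22% of all 2045 genes. Cftr had medians of 72.3 CPM in control (21.5 to 138) and 125 CPM in double-mutant glands (0 to 283). With library size alone it was called (0.94, adjusted p = 0.0307, edgeR), beside 242 of all 2045 genes. The 95% intervals left room for change: that of Scnn1b ran from -0.19 to 0.61 and that of Fxyd2 from -0.61 to 0.25 on the log2 scale. Of the calls over all genes in this class 36% were higher in double-mutant glands, and 95% with library size alone.

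In ductal progenitor-like cells 5 of the 9 genes were tested, none was called by edgeR or DESeq2 and none passed an unadjusted p of 0.05, beside 1.3% of all 846 genes called. Slc12a2 ranged from 1062 to 3403 CPM in control and from 199 to 5436 CPM in 13 double-mutant glands, with medians of 1949 and 2538 (0.27 ± 0.26, adjusted p = 0.803, edgeR). The log2 fold changes of the others were 0.60 ± 0.30 for Scnn1b, 0.26 ± 0.23 for Cftr, -0.33 ± 0.30 for Fxyd2 and -0.34 ± 0.23 for Atp1b1. In ductal Smgc+/Esp4+-like cells 5 were tested, none was called by either tool and none passed an unadjusted p of 0.05, beside 2.24% of all 1207 genes. The calls that were higher in double-mutant glands were 45.5% of those in progenitor-like and 77.8% of those in Smgc+/Esp4+-like cells (75% and 95.3% with library size alone).

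In basal-like cells 3 of the 9 genes were tested, none was called by edgeR or DESeq2 and 1 passed an unadjusted p of 0.05 (Fxyd2, -0.82 ± 0.37, adjusted p = 0.162, edgeR), beside 12.2% of all 1188 genes. The basal-like cells of control glands came mostly from a cluster led by Smoc2 and Ucma (90.3%) and those of double-mutant glands from a cluster led by Sostdc1 and Krt17 (76.0%). Of the calls over all genes in this class 77.9% were higher in double-mutant glands (92.3% with library size alone).

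CSC-like cells, the class of the study's cancer stem cell markers, among them the Wnt target Axin2 and Bmp4, were found almost only in double-mutant glands (319 cells, with at least 10 in 9 glands). Their medians were 432 CPM for Atp1b1, 163 for Fxyd2, 94.2 for Slc12a2, 44.3 for Ano1 and 23.5 for Aqp5. In the double-mutant glands the medians of Klk1+-like cells were 3696 CPM for Atp1b1 and 5805 for Fxyd2, and those of acinar-like cells were 241 for Slc12a2, 46.2 for Ano1 and 169 for Aqp5. The unnamed Gm12873 cluster, with 731 of its 800 cells from double-mutant glands and the Wnt target Nkd1 among its leading genes, had levels like those of acinar-like cells, with medians of 174 CPM for Aqp5 (123 to 314), 246 for Slc12a2 and 58.9 for Ano1 over 13 glands.

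**Figure D5:**
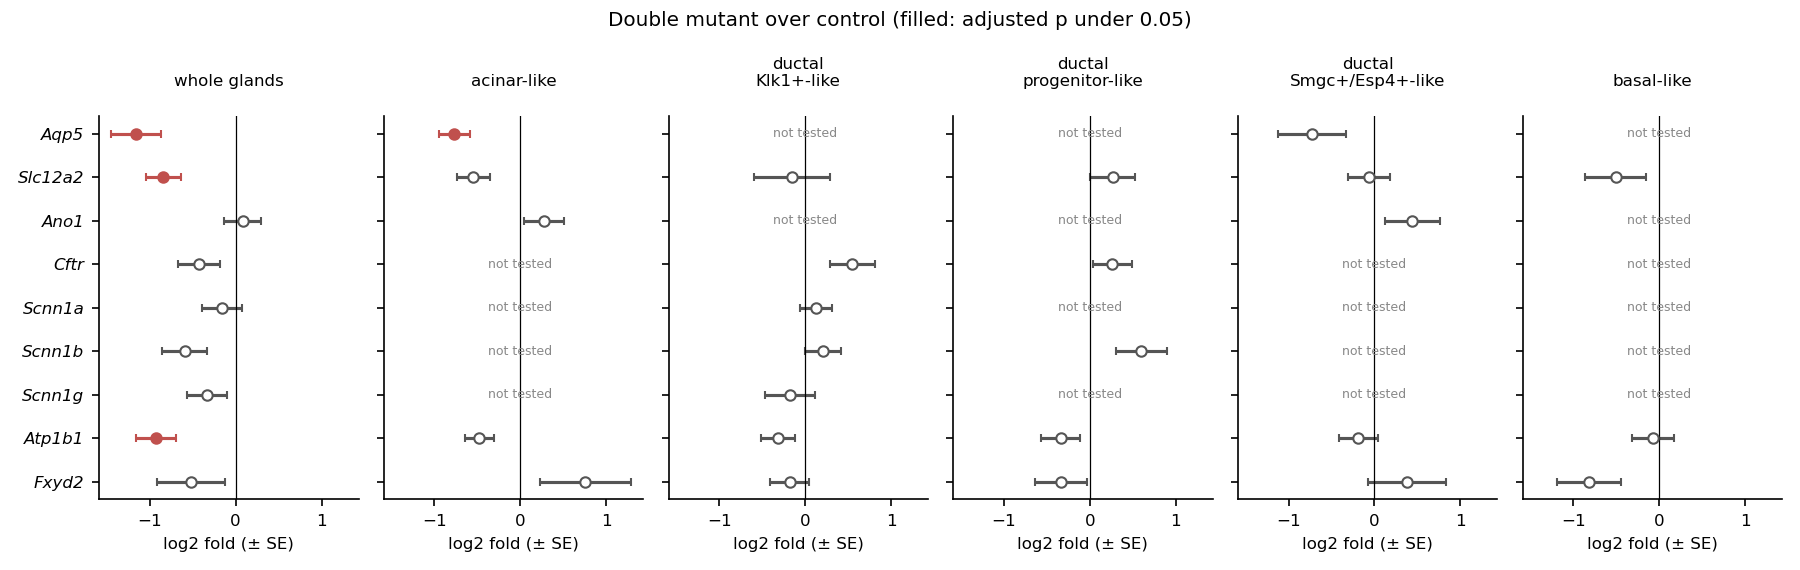
Log2 fold change of double-mutant over control glands (x axis, ± SE) for the genes tested (y axis) in whole glands and in 5 cell classes, 1 panel each, with filled points where the adjusted p was under 0.05. Filled points are Aqp5, Slc12a2 and Atp1b1 in whole glands and Aqp5 in acinar-like cells (-0.77).

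The other genes of saliva transport were described from 3 lists. Of 29 genes of fluid secretion, 15 were tested between acinar-like and ductal Klk1+-like cells of control glands; 6 were higher in acinar-like cells and 6 lower (median log2 fold change -0.39, against -0.01 over all genes). Kcnn4 (5.12 ± 0.26), a calcium-activated potassium channel of acinar cells, and Lrrc26 (3.19 ± 0.18), an auxiliary subunit of the BK potassium channel, were higher, and both stayed higher with library size alone (3.26 and 1.29). Of 31 genes of duct salt and bicarbonate transport, 20 were tested, 14 were lower and 3 higher in acinar-like cells (median -2.06). Kcnj15 (-5.69 ± 0.49), Kcnj16 (-5.58 ± 0.33) and Kcnq1 (-4.61 ± 0.48), all potassium channels, had the largest differences, and Kcnk1 (1.77 ± 0.15), a potassium leak channel, was higher, but had no call and the opposite sign with library size alone (-0.12).

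Of 11 further sodium pump genes 3 were tested in that comparison. Fxyd3, another FXYD regulator, was higher in acinar-like cells (2.52 ± 0.17, and 0.62 with library size alone), and 2 were lower (median -0.58). Against ductal progenitor-like cells, 4 secretion genes were higher and 6 lower of 16 tested (median -0.66), 3 duct genes higher and 11 lower of 17 (median -1.36), and 1 pump gene higher and 2 lower of 3 (median -0.84), against 0.13 over all genes. Kcnn4 (5.74 ± 0.30), Lrrc26 (4.14 ± 0.26), Fxyd3 (3.36 ± 0.20) and Clcn3 (1.89 ± 0.24) were the highest of these, of which Clcn3 was called lower with library size alone (-0.63). Bsnd (-4.97 ± 0.47), which encodes the channel subunit barttin, was among the lowest, with Slc4a11 (-4.85 ± 0.25), a solute carrier related to bicarbonate transporters, and the sodium-proton exchanger Slc9a2 (-4.25 ± 0.65).

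In double-mutant glands the acinar-like against Klk1+-like comparison gave 5 higher and 6 lower of 14 secretion genes (median -0.41), 1 higher and 11 lower of 17 duct genes (median -2.01), and 1 higher and 2 lower of 4 pump genes (median -0.86), against -0.23 over all genes. The largest were again Kcnn4 (5.83 ± 0.28), Lrrc26 (3.15 ± 0.22) and Fxyd3 (2.92 ± 0.18) on the acinar side, with the kinase Stk39 (2.07 ± 0.20, and 0.09 with library size alone, no longer called), which acts on NKCC1. On the duct side were Kcnj16 (-5.52 ± 0.36) and Kcnj15 (-4.51 ± 0.50).

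In whole glands, double-mutant glands had 4 secretion genes higher and 1 lower of 22 tested (median 0.04), 3 duct genes higher and 3 lower of 23 (median -0.31), and 4 pump genes higher and none lower of 7 (median 1.15), against 0.02 over all genes. Among the highest were Aqp1 (2.6 ± 0.63), a water channel of endothelium, the calcium channel Trpv4 (1.94 ± 0.56) and Fxyd5 (1.81 ± 0.36). Kcnj16 (-1.20 ± 0.33), the carbonic anhydrase Car12 (-0.90 ± 0.22), the chloride channel Clcn2 (-0.78 ± 0.27) and the calcium sensor Stim1 (-0.59 ± 0.21) were lower, and with library size alone these 4 kept their sign but were not called (-0.73 to -0.10). The share of endothelial and other non-epithelial cells moved with genotype, as given above, and its part in the higher genes was not tested.

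At P90 alone, of these lists Fxyd5 (1.76 ± 0.47), Tsc22d3 (1.22 ± 0.31) and Atp1b3 (1.02 ± 0.25) were higher and Kcnj16 (-1.90 ± 0.41) lower. At P40, and for genotype by stage, stage in double-mutant glands and sex, edgeR called no gene of the lists (20, 3, 2 and 5 genes passed an unadjusted p of 0.05). Between stages of control glands Slc26a6 (-1.60 ± 0.45), Kcnk1 (-0.95 ± 0.22) and Clcn3 (-0.83 ± 0.22) were lower at P90 than at P40, and with library size alone they kept their sign but were not called (-1.11 to -0.40). In basal-like cells Sgk1 (2.26 ± 0.47), a kinase that raises ENaC activity, Atp1b3 (1.55 ± 0.33) and Fxyd3 (1.32 ± 0.24) were among the genes higher in double-mutant glands, between the different clusters named above, and edgeR called no gene of the lists in the other 4 classes (2 in acinar-like, 4 in Klk1+-like, none in progenitor-like and 4 in Smgc+/Esp4+-like cells passed an unadjusted p of 0.05) or for the contrast by genotype (2 passed it).

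The bulk libraries, made from fresh undissociated glands, held 34515744 and 34729551 counted reads. With 1 library per genotype, and ages of P70 and P100, genotype and age cannot be told apart and no test was made. In TPM (read counts per base of gene length, scaled to the same total in each library, a scale on which genes can be compared), the control gland ranked Fxyd2 (258 TPM) above Atp1b1 (149), Slc12a2 (115) and Aqp5 (108), then Ano1 (18.8), Scnn1b (12.4), Scnn1a (6.76), Scnn1g (3.8) and Cftr (2.42). Among 19807 genes with a read, Fxyd2 ranked 34 and Cftr 5213 by TPM.

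All 9 genes had lower TPM in the double-mutant gland. Scnn1g was 1.13 TPM there, 3.36-fold lower, and Slc12a2 was 34.2 TPM, 3.35-fold lower. Scnn1b (4.97 TPM, 2.49-fold) and Atp1b1 (70.2 TPM, 2.11-fold) followed, then Fxyd2 (139 TPM, 1.85-fold), Ano1 (11.4 TPM, 1.64-fold), Scnn1a (4.49 TPM, 1.51-fold) and Aqp5 (74.5 TPM, 1.44-fold). Cftr, at 2.21 TPM, differed least, with a log2 CPM ratio of -0.15 and a 95% counting interval from -0.30 to 0.0025, which covers counting error only. The median log2 CPM ratio over 13971 genes was -0.31. Reads were counted without regard to strand. Cftr shares exon bases with Gm15592, and Atp1b1 with Nme7, on the opposite strand, and strand was not used to assign reads in those bases.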

How the data were processed

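Single-cell RNA of dissociated submandibular glands was profiled by Drop-seq, after sorting of live (DAPI-negative) cells through gates meant to leave out debris and clumps, and methanol fixation. For the 26 Drop-seq tables the authors used Drop-seq tools and STAR on mm10 with GENCODE vM7, extended by Cre and EYFP. The deposited values are whole UMI counts of each gene in each barcode above the knee, with no normalization by the authors. The bulk counts were deposited as reads per gene, made by the authors with featureCounts 1.6.0 over exons, without a strand option although the library kit keeps strand. Data of 4 further glands measured by CITE-seq were not used here, nor was the authors' cell annotation.

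Groups came from the genotype and stage labels, and replicate and batch numbers from the titles. Cells with at least 100 genes and under 15% mitochondrial UMIs were kept (23346 of 26987 barcodes). No doublet caller was run. The sort was gated against clumps before the droplets were made, and droplets with more than 1 cell were not looked for. Of the barcodes of kept cells, 14 occurred in more than 1 library, and no pair of libraries shared more than 1. All 72 pairs of libraries within a group differed by more than sampling noise. The labels do not say that every gland came from a separate mouse, and p-values measure the spread between these samples.

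Cells were clustered (2000 variable genes, 30 principal components, 20 neighbours, Leiden at resolution 1.0, leidenalg 0.10.2), with the 9 genes, the transport lists, reporters and sex-linked genes held out. A cluster took the name of the marker list with the highest mean scaled level among lists with at least 3 markers at 2-fold over the median cluster in at least 10% of cells, if its 10 leading genes held at least 1 of that list's markers and no more of any other list. This naming rule was set after the clusters were seen. The members and lists were chosen with earlier results of these data known. Every one of the 9 genes is reported. Of the lists, up to 4 genes in each direction past an adjusted p of 0.05 with the largest absolute log2 fold change are named per comparison, and in the closing section the 3 genes with the class profile most like each member. Some genes that this rule names are not reported here.

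For each gland, and for each class with at least 10 cells in it, UMI counts were added up and tested with edgeR 4.0.16 in R 4.3.3 (quasi-likelihood, TMM, filterByExpr), with sex and stage as covariates where they were not tested and the gland as block between classes. Benjamini-Hochberg adjustment ran over all genes tested, and calls are at an adjusted p under 0.05. Each of the 16 fits was tested for changes under other scalings, filters and tools (DESeq2 1.42.0), without libraries in doubt, and with batch or replicate number as a term. The fits were checked on simulated counts. TPM was computed from the deposited bulk counts and gene lengths. Depth limits precision: a class of few cells gives values in steps of 1 UMI, and the bulk interval is an exact counting interval at 95%.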

Additional observations from a re-analysis of the deposited data

Results flagged for a closer look

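In 3 of 36 sets of whole-gland values (each of the 9 genes in each of the 4 groups) the highest gland stood apart from the others of its group by Dixon's gap test, where chance flags about 1 in 20. Aqp5 was 305.6 scaled CPM in double-mutant P90 replicate 7, against 140.2 in the next highest of the 7 glands. Atp1b1 was 1449 scaled CPM in control P90 replicate 2, against 1079 in the next of 6. Fxyd2 was 1557 scaled CPM in control P40 replicate 1, against 903.7 in the next of 6.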

How the results depend on the processing

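Of 1071 values of the 9 genes under an alternative, 1029 stayed on the same side of the threshold, 31 became called, 10 lost their call and 1 reversed. The one that reversed was Slc12a2 in acinar-like against ductal progenitor-like cells of control glands, which went to -2.44 with library size alone, an alternative added after the data were seen. All 108 class levels moved by less than their error with the mean in place of the median, a change that leaves their scaling as it was. The 9 bulk ratios did so with CPM in place of TPM. That change shifts the log2 ratio of every gene by the same amount, so it does not test them. The number of the 9 genes called moved as follows, and the cause was not tested. For genotype in whole glands it was 3, and 0 with batch as a term (beside 300 of all 15183 genes), while Scnn1b was called with glands thinned to the shallowest. At P40 it was 0, and 2 with the DESeq2 Wald test (beside 681 of all 10206 genes) and 2 with no filter on low counts (beside 1657 of all 26435). At P90 it was 1, and 0 with library size alone, 2 with DESeq2 (beside 996 of all 9059 genes), 0 without the libraries against their sex labels and 6 with batch as a term (beside 1232 of all 13433). For stage in control glands it was 0, and 1 with no filter (beside 2235 of all 25652 genes). For sex in control glands it was 0, and 1 with DESeq2 (beside 205 of all 9086 genes), 2 with no filter (616 of 25652) and 1 with glands thinned to the shallowest (101 of 7949). In acinar-like cells it was 1, and 2 with DESeq2 (beside 75 of all 3787 genes), 0 without the 3 libraries in doubt, 0 with batch as a term and 3 with the 4 unnamed acinar-scoring clusters (235 of 5376). In ductal Klk1+-like cells it was 0, and 1 with library size alone (Cftr, beside 242 of all 2045 genes). It was 1 with no filter (Aqp5, -2.34, beside 91 of 19410) and 1 at resolution 0.6 (Aqp5, -3.01, beside 68 of 2317). The filter on low counts had left Aqp5 out of the main fit of that class. The acinar markers of these cells had medians of 16569 CPM in control and 3952 CPM in double-mutant glands. In basal-like cells it was 0, and 1 with no filter (Ano1, 2.03, likewise left out by the filter, beside 329 of all 19150 genes). For the acinar to ductal Klk1+ contrast by genotype it was 0, and 1 at resolution 0.6 (Aqp5, beside 43 of all 7486 genes). In the 3 comparisons of acinar-like with duct cells the number of calls stayed within 1.5 times the main one under every alternative run.

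Replicate numbers of the titles did not pair the glands: over 37 pairs of the same number the correlation of deviations ranged from -0.37 to 0.55, with a median of 0.047, 17 of them over 0.1, and a median of -0.018 over other pairs. With the replicate block, 5 of the 9 genes were called for genotype in whole glands, 2 at P40, 5 at P90, 2 in acinar-like cells and 1 in ductal Klk1+-like cells (Aqp5). Over all genes, that block gave 3998 calls of 13536 in whole glands, 765 of 14401 at P40 and 1147 of 13433 at P90. It gave 63 calls of 6256 in acinar-like and 63 of 4261 in ductal Klk1+-like cells. That block also let more genes through the filter on low counts (13536 in place of 10488 in whole glands). Batch as a term could not be estimated for stage or sex in control glands.

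Over all genes, the share of calls in each direction depended on the scaling, as given beside each comparison. Depth limits the sparse genes most: Scnn1g had 241 UMIs in control and 244 in double-mutant cells, Scnn1a 518 and 576, and Cftr 616 and 619.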

Other observations

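For each of the 9 genes, up to 3 genes with the most similar class profile were sought among 9412 genes, by Pearson's r of log2(CPM + 1) over 16 cell classes of control glands. The classes share libraries and background RNA, so that r is a description. Aqp5 was most like Pycr1 (r = 0.956), an enzyme of proline synthesis, then Cldn10, a tight-junction claudin, and the transcription factor Etv1. Slc12a2 was most like Cgnl1 (0.838), a junction protein, then Ncald and Gstt3, and Ano1 was most like the actin-binding Cald1 (0.828), then the sodium-glucose cotransporter Slc5a1 and Rexo2.

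Among the duct genes Cftr was most like Cwh43 (0.904), the scaffold Shank2 and the chloride channel Clcn2. Scnn1a was most like Wfdc2 (0.955), Elovl7 and Slit2, Scnn1b like the kallikreins Klk1 (0.931) and Klk1b24 and the ubiquitin ligase Mgrn1, and Scnn1g like Fgf9 (0.934), the carbonic anhydrase Car13 and Inpp5j. Near Atp1b1 were the mitochondrial Atp5g1 and Cox5b. Fxyd2 was most like Acadm (0.947), an enzyme of fatty acid oxidation, the proton pump subunit Atp6v0d2 and Klk1. Cldn10, Klk1, Klk1b24 and Atp6v0d2 were among the markers used to name classes. Among the 9 genes themselves, Scnn1b and Fxyd2 were most alike (r = 0.909).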
